A study of Mus musculus with 51 samples.

Results

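The 10 genes described here, *Axin2*, *Lef1*, *Tcf7*, *Sp5*, *Sp8*, *Nkd1*, *Notum*, *Dkk1*, *Rspo3* and *Lgr5*, are targets and modulators of canonical Wnt signalling, taken by symbol from tables of 24538 genes. All 10 were present in each of the 9 tables. RNA had been sequenced from mouse ES cells and from cells differentiated out of them with Bmp4 (20 ng/ml) as aggregates on fibronectin, and ES denotes the aggregate stage before Bmp4. F1G4 WT cells were collected at the ES stage and for 3 days after (2 samples at each time by label). On days 2 and 3 the cells lacking *Eomes* (*Eomes* KO), *T* (*T* KO) or both genes (dKO) were collected as well. *Smad4* KO cells and WT cells of the *Smad4* line were collected on days 1 and 2. Each KO line and day, and each day of the WT cells of the *Smad4* line, had 1 sample by its label. All groups after the ES stage were differentiated with the same Bmp4 dose. The 2 lines lacking 1 T-box gene were clones of F1G4 cells that lost the promoter and first exon of the gene after CRISPR/Cas9 nicking, and the dKO line was made from *Eomes* KO cells. The *Smad4* line has a 129S/SvEvxC57BL/6 background, its WT cells still carry floxed *Smad4* alleles, and the KO clone was derived from it with transient Cre.

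In the canonical pathway Wnt ligands bind Frizzled receptors and Lrp co-receptors, which stops the destruction complex from degrading beta-catenin. Beta-catenin then enters the nucleus and activates genes together with transcription factors of the TCF/LEF family. Many of the activated genes encode feedback inhibitors, so that their transcripts serve as readouts of the pathway. At gastrulation, Wnt signalling in the primitive streak is required for mesoderm to form, and *T* and *Sp5* are among its known targets there.

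By role, *Axin2* encodes a scaffold of the destruction complex and *Nkd1* an intracellular inhibitor that binds Dishevelled. *Lef1* and *Tcf7* encode TCF/LEF factors, and *Sp5* and *Sp8* related zinc-finger factors that act with them. *Notum* encodes a secreted enzyme that removes the lipid from Wnt ligands, and *Dkk1* a secreted inhibitor that binds Lrp co-receptors. *Rspo3* encodes an R-spondin, a secreted enhancer of Wnt signalling, and *Lgr5* a receptor for R-spondins.

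Promoter sequences were available for 7 of the 10 genes in the RefSeq table of GRCm38.p6 (mm10), and *Notum*, *Rspo3* and *Lgr5* had no entry. The letters CTTTGAA and CTTTGAT, a core of the sequence that TCF/LEF factors recognise, were searched on both strands in 300 bases per start site, 250 upstream and 50 downstream. At least one of them was found for 3 of the 7 genes (*Sp5*, *Sp8* and *Dkk1*), and for 9.88% of all 27025 genes in the table. The upstream windows of 3 genes are printed 5′ to 3′ on the strand of the gene, with the matched letters in capitals. *Sp5* and *Dkk1* had a match, and *Axin2*, a widely used readout of the pathway, had none in this window. The annotated *Axin2* gene begins upstream of its window, at 11:108917828, and the bases around that start were not searched. The windows lie at chr2:70474673-70474922 (plus strand) for *Sp5* and chr19:30549497-30549746 (minus strand) for *Dkk1*. That of *Axin2* lies at chr11:108920099-108920348 (plus strand), and none of them overlaps an annotated exon.

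Sp5: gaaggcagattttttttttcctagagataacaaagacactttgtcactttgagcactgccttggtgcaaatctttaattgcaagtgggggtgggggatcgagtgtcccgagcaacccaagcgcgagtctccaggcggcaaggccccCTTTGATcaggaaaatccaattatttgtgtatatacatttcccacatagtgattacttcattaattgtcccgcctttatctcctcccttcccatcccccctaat

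Dkk1: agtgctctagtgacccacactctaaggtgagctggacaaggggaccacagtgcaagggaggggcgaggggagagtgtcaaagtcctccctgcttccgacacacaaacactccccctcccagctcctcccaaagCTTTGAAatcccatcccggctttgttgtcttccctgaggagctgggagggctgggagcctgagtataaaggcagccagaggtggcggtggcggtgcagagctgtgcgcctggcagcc

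Axin2: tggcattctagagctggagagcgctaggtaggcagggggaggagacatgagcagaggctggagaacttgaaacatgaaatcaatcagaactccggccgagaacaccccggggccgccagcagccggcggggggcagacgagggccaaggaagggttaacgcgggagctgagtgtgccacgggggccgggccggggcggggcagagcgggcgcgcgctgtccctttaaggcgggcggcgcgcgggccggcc

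The match began at base −104 from the start site in *Sp5* and at −117 in *Dkk1*. In *Sp8* it lay on the opposite strand at −51 of 1 annotated start site. The T-box letters TCACACC occurred in none of the 7 genes (4.60% of all genes). GGCGCC, a GC-rich sequence that Smad proteins can bind, occurred in *Lef1*, *Tcf7* and *Sp8* (13.4% of all genes). A match is a stretch of letters and was not tested for binding.

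All 10 genes are protein-coding. In mm10 they lie at 11:108917828-108950783 (*Axin2*), 3:131110297-131224357 (*Lef1*), 11:52246527-52283383 (*Tcf7*), 2:70474923-70477726 (*Sp5*) and 12:118846288-118852578 (*Sp8*). The others lie at 8:88521342-88594887 (*Nkd1*), 11:120653788-120661193 (*Notum*), 19:30545876-30549496 (*Dkk1*), 10:29453106-29535867 (*Rspo3*) and 10:115450314-115587780 (*Lgr5*). *Tcf7* alone shares exonic bases with another gene, up to 332 bases with *Skp1* on the other strand, and the libraries were strand-specific.

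Levels are FPKM, fragments scaled to transcript length and library size, which the authors computed. Each table holds a single FPKM per gene and condition, so no SD, n or test could be given for any difference, and none has a replicate check. A gene was examined in a comparison if it exceeded FPKM 1 in at least one group, and called if its log2 ratio was above 1 or below −1. The call marks the size of a difference and is not a test. For a gene above FPKM 1 in only 1 of the groups, passing this minimum fixes the direction of its difference. The spacing of low values gave a depth of 18100000 to 37400000 fragments for 10 of the 20 columns, those of the KO lines and of the *Smad4* line. No such spacing was found for the 10 columns of F1G4 WT cells, whose depth is unknown. The F1G4 WT columns beside each KO held the time-course values multiplied by a constant (0.989 to 1.045), so the 3 comparisons of a day share 1 WT measurement. Levels of KO lines and days set side by side come from tables that were normalized separately. In bulk RNA, fewer expressing cells and less RNA per cell cannot be told apart.

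Markers of the labelled states were summed over fixed lists. The 6 nascent mesoderm genes summed to FPKM 1.38 at the ES stage and to 421 on day 3 in F1G4 WT cells, and to 1.98 and 2.84 in *Smad4* KO cells on days 1 and 2. On day 3 they summed to 6.08 without *Eomes*, 25.1 without *T* and 13.3 without both, and *Mesp1*, a marker of cardiac mesoderm, was listed at 0 in these 3 columns. The list was *T*, *Eomes*, *Mixl1*, *Mesp1*, *Evx1* and *Fgf8*, so it held the deleted genes themselves. *T* alone was at 320 and *Eomes* at 19.4 in F1G4 WT cells on day 3. The lower sums in these 3 lines therefore partly restate the deletions. The 6 pluripotency genes summed to 1796 at the ES stage and to 383 to 1196 in the other 13 conditions. The 7 fibroblast feeder genes summed to at most 5.36 and the 4 blood and endothelial genes to at most 0.806. On day 2 *Eomes* was at FPKM 2.42 in *Eomes* KO cells (9.42 in WT) and 1.24 in dKO cells (9.40), and *T* at 6.64 in *T* KO cells (44.8) and 2.77 in dKO cells (43.0). On day 3 *Eomes* was at 0.276 in *Eomes* KO and 0.346 in dKO cells, and *T* at 3.00 in *T* KO and 1.93 in dKO cells. *Smad4*, summed over the whole gene, was not lower in the *Smad4* KO columns (39.4 against 33.8 on day 1), and removal of the first exon could not be read from it.

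**Figure D1:**
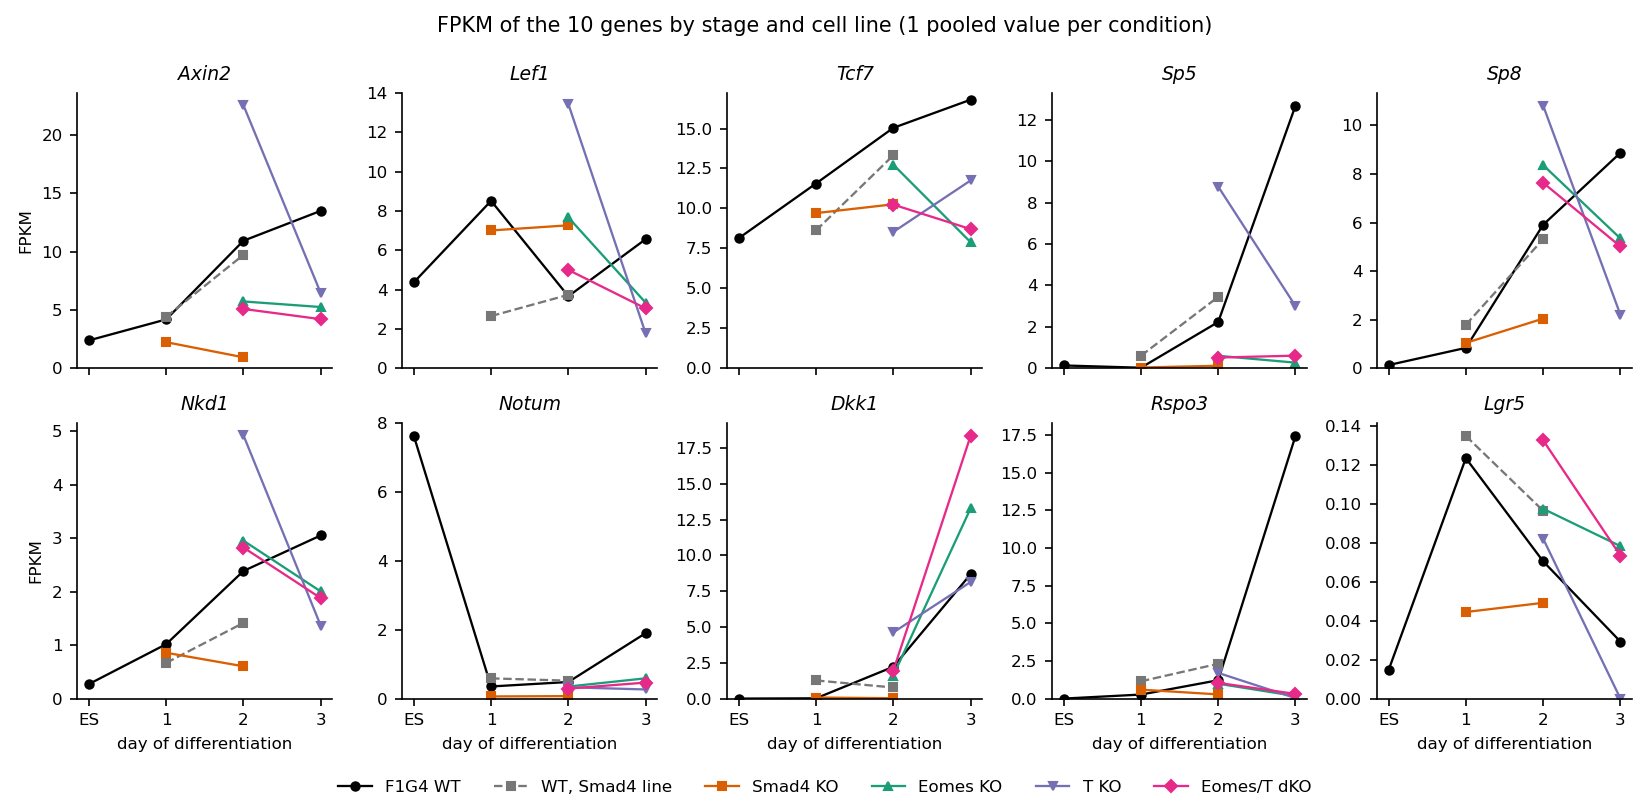
FPKM (linear axes from 0, scaled per gene) of the 10 genes at the ES stage and on days 1 to 3, as 1 value per point. No error bar was available. Sp5, Dkk1 and Rspo3 reached 8.68 to 17.5 in F1G4 WT cells (black) by day 3 from at most 0.140 at the ES stage, while T KO cells (violet) had the highest Axin2, Lef1, Sp8 and Nkd1 of all conditions on day 2.

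In F1G4 WT cells the 10 genes did not move as a block during Bmp4 differentiation. *Notum* was high at the ES stage and low from day 1 on, *Lef1* peaked on day 1, and *Sp5*, *Dkk1* and *Rspo3* were at FPKM 0.268 or less up to day 1 and high on day 3. *Axin2*, *Nkd1*, *Sp8* and *Tcf7* were higher at each successive stage. From the ES stage to day 3, 7 of the 9 examined genes were called higher and 1 lower, where 31.1% of all examined genes were called (12.6% lower, 18.5% higher). *Lgr5* stayed at FPKM 0.135 or less in all 14 conditions and was examined in no comparison.

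The feedback inhibitors inside the cell had graded profiles. *Axin2* was at FPKM 2.39 at the ES stage, 4.19 on day 1, 10.9 on day 2 and 13.5 on day 3. It was 5.64-fold higher on day 3 than at the ES stage (log2 2.49), and only the step from day 1 to day 2 was called (log2 1.38). *Nkd1* was at 0.271, 1.02, 2.39 and 3.05 at the same stages, 11.3-fold higher at the end (log2 3.49). Most of the difference in both genes was thus in place by day 2.

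The TCF/LEF factors differed from each other. *Tcf7* was the most evenly expressed of the 10 genes, at FPKM 8.14 at the ES stage, 11.6 on day 1, 15.0 on day 2 and 16.8 on day 3 (log2 1.05 from end to end). *Lef1* was at 4.37, 8.51, 3.66 and 6.56, so that it was lower on day 2 than on day 1 (log2 −1.22) while 6 other genes were called higher. *Lef1* was the sole gene of the 10 to be called lower between these days.

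Both Sp factors were called higher from day 1 to day 2 (log2 6.24 for *Sp5* and 2.81 for *Sp8*) and differed in the step after. *Sp8* was at FPKM 0.135 at the ES stage, 0.843 on day 1, 5.91 on day 2 and 8.88 on day 3. *Sp5* was at 0.140, 0.0297, 2.24 and 12.7, so *Sp8* had reached most of its day 3 level on day 2 and *Sp5* had not. From day 2 to day 3 the log2 ratio was 2.50 for *Sp5* and 0.59 for *Sp8*.

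The secreted regulators were on at different stages. *Notum* was at FPKM 7.63 at the ES stage and 0.352, 0.482 and 1.90 on days 1, 2 and 3, which made it 21.7-fold lower on day 1 (log2 −4.44). *Dkk1* was listed at 0 at the ES stage and was at 0.0183, 2.22 and 8.68 on days 1, 2 and 3. *Rspo3* was likewise listed at 0 and then at 0.268, 1.22 and 17.5, and from day 2 to day 3 it was 14.3-fold higher (log2 3.84). On day 3 *Rspo3* had the highest FPKM of the 10 genes, followed by *Tcf7*, *Axin2*, *Sp5*, *Sp8*, *Dkk1*, *Lef1*, *Nkd1*, *Notum* and *Lgr5*. Which neighbours in this order differ beyond their spread cannot be said with a single value each.

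By step, 1 of 5 examined genes was called higher and 1 lower from the ES stage to day 1 (background 13.5% of all examined genes called, 5.84% lower and 7.7% higher). Rescaled to TPM the split was 3 higher and 1 lower, and with columns scaled to a median ratio of 1 it was 2 and 1. By TPM, *Lef1* was added by its ratio (log2 1.06), and *Sp8* because a minimum of 1 TPM is lower than FPKM 1. From day 1 to day 2, 6 of 8 were called higher and 1 lower (11.3%, or 4.13% lower and 7.18% higher), and from day 2 to day 3, 4 of 9 were called higher and none lower (10.2%, or 4.06% lower and 6.14% higher). The median log2 ratio of the examined members, with 0.1 added to each FPKM, was 0.78, 1.60 and 0.82 for the 3 steps, while that of all examined genes lay between −0.054 and 0.006. The step from day 1 to day 2 held the most calls.

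A wider list held 77 other Wnt pathway genes. They were grouped as ligands, receptors, R-spondins with their receptors and ligases, secreted antagonists, cytoplasmic transducers and nuclear factors. Between the ES stage and day 3, 47 were examined, with 18 called higher and 3 lower (44.7% called). Of all examined genes 31.1% were called, 18.5% higher and 12.6% lower. Of 19 ligands 9 were examined and 8 called higher, and of 10 examined cytoplasmic transducers none was called in either direction. *Wnt3*, *Wnt5b* and *Wnt8a* were at FPKM 0.342 or less at the ES stage. They passed the minimum through day 3 alone, so the shared direction of the ligands is partly set by the filter. Among receptors, *Fzd10* was at FPKM 2.48 at the ES stage and 32.8 on day 3 and *Fzd2* at 1.15 and 10.5, while *Fzd5* was at 20.3 and 2.21. *Tle4*, a corepressor of TCF factors, was at 66.9 and 10.9.

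Loss of *Smad4*, the shared partner of the receptor-activated Smads, was used to ask which genes need Bmp and Nodal signalling through Smads. *Axin2*, *Nkd1*, *Sp5*, *Sp8* and *Rspo3* were called lower in the KO cells on day 2, while the TCF/LEF factors were not. On day 2, 5 of 7 examined genes were called lower and none higher (background 5.77% called, 3.21% lower and 2.56% higher). On day 1, 1 of 6 was called lower and 1 higher (4.77% called, 2.41% lower and 2.36% higher). Rescaled to TPM, 3 were called lower and 1 higher. The added ones, *Sp5* and *Notum*, were below FPKM 1 in both lines and passed because a minimum of 1 TPM is lower than FPKM 1. The share of all genes called by TPM was not computed. The median log2 ratio of the examined members, with 0.1 added, was −0.79 on day 1 and −1.33 on day 2.

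*Axin2* was at FPKM 4.41 in WT and 2.24 in *Smad4* KO cells on day 1 (log2 −0.98), and 9.72 and 0.945 on day 2. WT cells went up between the days and KO cells went down. The WT and KO levels of *Nkd1* were 0.667 and 0.856 on day 1, then 1.42 and 0.604 on day 2 (log2 −1.23). *Sp8* was at 1.80 and 1.05 on day 1, then at 5.32 and 2.05 (log2 −1.38), so its level in KO cells still went up with time. *Sp5* was at 0.606 and 0.0399 on day 1, then at 3.45 and 0.124, where the KO value stands for about 9 fragments (log2 −4.80, 95% Poisson interval for the KO count −5.93 to −3.87). Such intervals cover counting error of the KO column alone.

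*Rspo3* was at FPKM 1.15 in WT and 0.594 in *Smad4* KO cells on day 1, and a day later at 2.31 and 0.278 (log2 −3.06). *Dkk1* was at 1.27 and 0.0749 on day 1, the latter about 4 fragments (log2 −4.08, interval −5.96 to −2.73). On day 2 *Dkk1* was at 0.775 and 0.0259, and *Notum* was at 0.587 and 0.0622 on day 1 and 0.520 and 0.0717 on day 2. These values were below FPKM 1 in both lines and were not examined, although each was lower in KO.

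*Lef1* went the other way. It was at FPKM 2.66 in WT and 7.01 in *Smad4* KO cells on day 1 (log2 1.40), then at 3.74 and 7.27 the next day (log2 0.96, just short of a call). *Tcf7* was at 8.63 and 9.71 on day 1, and next at 13.3 and 10.3, with neither difference called. The KO cells thus kept the transcripts of both TCF/LEF factors while *Axin2* was 10.3-fold lower on day 2.

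On day 2 the 3 neural markers *Sox1*, *Pax6* and *Zic1* summed to FPKM 0.756 in WT and 14.2 in *Smad4* KO cells, and nascent mesoderm markers to 76.6 and 2.84. Their part in the differences was not tested. The WT cells of the *Smad4* line differed from F1G4 WT cells on day 1 at 4 of 7 examined members, with a lower *Lef1* (log2 −1.64) and higher *Sp8* (1.13), *Rspo3* (2.14) and *Dkk1* (6.16), where 11.0% of all examined genes were called. On day 2 *Dkk1* alone of 8 was called (log2 −1.50, background 5.08%). On day 1 *Lef1* in *Smad4* KO cells (7.01) lay nearer the F1G4 WT level (8.51) than that of its own WT cells (2.66), although the tables differ.

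Of the wider list, 10 of 46 examined genes were called lower and 4 higher on day 2 in *Smad4* KO (30.4% called). Of all examined genes 5.77% were called, 3.21% lower and 2.56% higher. Of 19 ligands 6 were examined, and all 6 were called lower, among them *Wnt3*, *Wnt5b* and *Wnt8a*. In KO cells *Wnt5b* was at FPKM 0.882 and *Wnt8a* at 0.419. Both passed the minimum through the WT cells alone, so the shared direction is partly set by the filter. None of the 11 cytoplasmic transducers and none of the 7 nuclear factors was called. Receptors went both ways, 3 lower and 3 higher of 14, with *Fzd10* at FPKM 14.2 in WT and 1.39 in KO (log2 −3.36) and *Fzd7* at 21.9 and 46.5 (log2 1.08). *Sfrp1*, a secreted antagonist that binds Wnt ligands, was at 2.48 and 6.32 (log2 1.35).

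**Figure D2:**
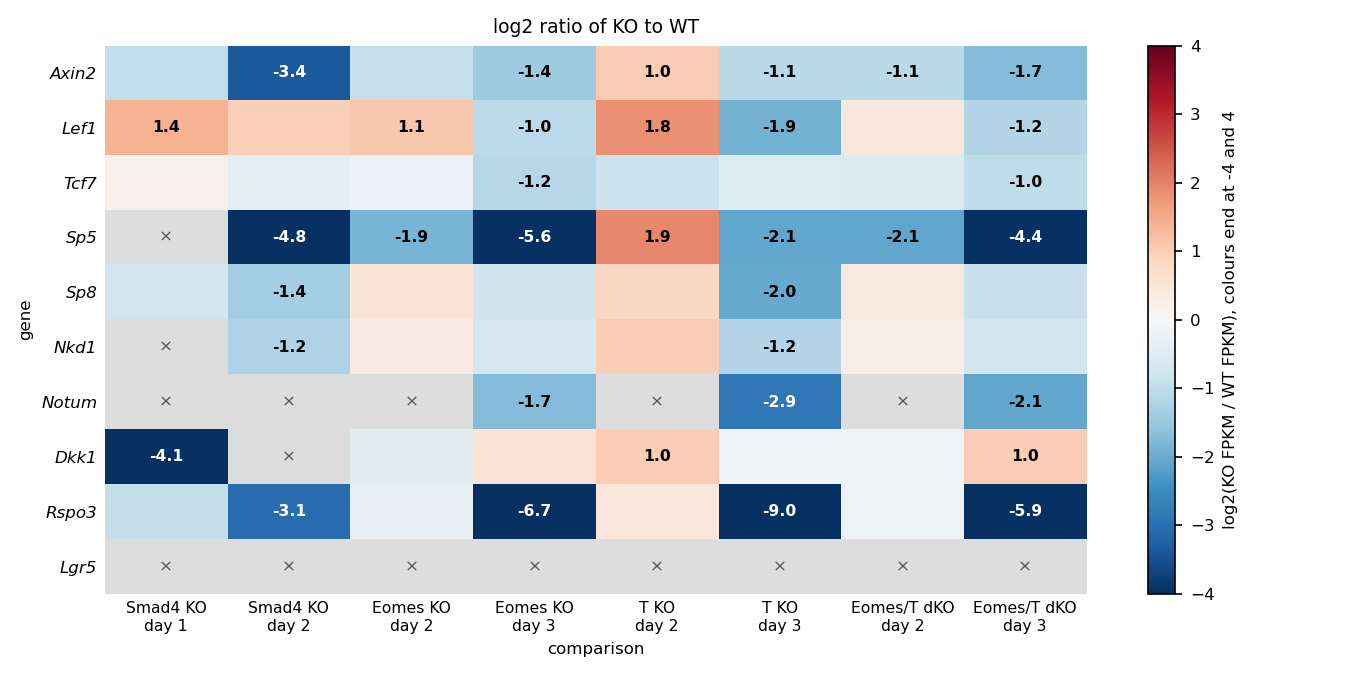
log2 ratio of KO to WT FPKM for the 10 genes (rows) in 8 comparisons (columns). Numbers mark called differences and grey cells with a cross mark FPKM of at most 1 in both groups. On day 3 Axin2, Lef1, Sp5, Notum and Rspo3 were called lower in all 3 KO lines. On day 2 Axin2, Lef1, Sp5 and Dkk1 were called higher in T KO.

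*Eomes* and *T* encode T-box factors of the nascent mesoderm, and cells lacking either or both were compared with WT cells. *Eomes* KO cells showed few called members on day 2 and many on day 3. *T* was at FPKM 22.3 on day 2 (43.1 in WT) and 4.46 on day 3 (334 in WT) in these cells. *Eomes* was likewise lower in *T* KO cells on day 3 (4.83 against 19.6 in WT). On that day the single KO lines thus cannot separate what each factor contributes. On day 2, 1 of 8 examined genes was called lower and 1 higher (background 7.52% called, 4.17% lower and 3.35% higher), and 2 lower and none higher rescaled to TPM. On day 3, 6 of 9 were called lower and none higher, where 16.4% of all examined genes were called, 9.01% lower and 7.39% higher. The median log2 ratio of the members with 0.1 added was −0.25 on day 2 and −1.14 on day 3.

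*Rspo3* was at FPKM 1.21 in WT and 0.987 in *Eomes* KO cells on day 2, and a day later at 18.2 and 0.171, about 10 fragments (log2 −6.73, interval −7.79 to −5.86). *Sp5* was at 2.21 and 0.606 on day 2 (log2 −1.87), then at 13.2 and 0.274 (log2 −5.59). These were the 2 largest differences among the members. The levels of *Axin2* were 10.8 and 5.73 on day 2 (log2 −0.92), then 14.0 and 5.25 (log2 −1.42), and unlike *Rspo3* it remained expressed. *Notum* was at 0.588 in KO on day 3 (log2 −1.75).

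*Lef1* reversed between the days in *Eomes* KO cells. It was at FPKM 7.67 in KO on day 2 (log2 1.08) and 3.34 on day 3 (log2 −1.03), the opposite of the WT course. Both calls were marginal, since rescaled to TPM the ratios were 0.86 and −0.75, and with a pseudocount of 1 they were 0.90 and −0.85. On day 3 the ratio was also −0.96 with trends of GC content and transcript length removed, −0.99 with columns scaled to a median ratio of 1 and −0.98 against the time-course WT column. *Tcf7* was at 7.89 in KO on day 3 (log2 −1.15, and −0.87 rescaled to TPM). *Sp8*, *Nkd1* and *Dkk1* were not called on either day. *Dkk1* was at 13.3 in *Eomes* KO cells on day 3 (log2 0.55), and *Sp8* was at 8.37 on day 2 and 5.35 on day 3.

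*T* KO cells differed from WT in opposite directions on the successive days. On day 2, 4 of 8 examined members were called higher and none lower, where 15.6% of all examined genes were called, 9.93% lower and 5.7% higher. On day 3, 7 of 9 were called lower and none higher (background 6.04% called, 3.92% lower and 2.12% higher). The median log2 ratio with 0.1 added was 0.97 on day 2 and −1.84 on day 3. *Eomes* itself was at FPKM 24.7 in *T* KO on day 2 (9.81 in WT) and at 4.83 on day 3 (19.6 in WT).

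On day 2 *Lef1* was at FPKM 13.4 in *T* KO cells (log2 1.83), *Axin2* at 22.5 (log2 1.00) and *Sp5* at 8.77 (log2 1.93), and *Sp8* and *Nkd1* were at 10.8 (log2 0.82) and 4.92 (log2 1.00, just below the threshold). *Axin2*, *Lef1*, *Sp8* and *Nkd1* thus had their highest level of all 14 conditions in these cells. *Dkk1* was at 4.62 (log2 1.01). The calls of *Axin2* and *Dkk1* sat at the threshold and were both lost with a pseudocount of 0.1, and *Axin2* also with the GC content and length trends removed (0.92). *Tcf7* was an exception, at 8.53 against 15.5 in WT (log2 −0.86), and *Rspo3* was at 1.71 (log2 0.44).

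On day 3 *Axin2* was at FPKM 6.45 in *T* KO cells (log2 −1.08), *Lef1* at 1.78 (log2 −1.90) and *Sp5* at 3.01 (log2 −2.09). *Sp8* was at 2.21 (log2 −2.02) and *Nkd1* at 1.36 (log2 −1.17). Each of these 5 genes was lower on day 3 than on day 2 in *T* KO cells, whereas each was higher on day 3 than on day 2 in WT cells. *Notum* was at 0.265 (log2 −2.85). *Rspo3* was at 0.0335, about 3 fragments (log2 −9.04, interval −11.32 to −7.49). *Dkk1*, at 8.14, did not follow (log2 −0.10, interval −0.21 to 0.0035), and *Tcf7* was at 11.7 (log2 −0.53).

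*Eomes*/*T* dKO cells had few called members on day 2 and most of the examined ones on day 3. On day 2, 2 of 8 examined genes were called lower and none higher (background 7.99% called, 4.5% lower and 3.48% higher), and on day 3, 6 of 9 were called lower and 1 higher (background 11.0% called, 5.53% lower and 5.51% higher), or 6 lower and none higher rescaled to TPM. The median log2 ratio with 0.1 added was −0.18 and −1.13. On day 2 *Axin2* was at FPKM 5.09 (log2 −1.08, and −0.95 with GC content and length trends removed) and *Sp5* at 0.521 (log2 −2.08). Cells that lacked *Eomes* as well did not show the higher day 2 levels of *Axin2* and *Sp5* seen in *T* KO cells.

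On day 3 *Rspo3* was at FPKM 0.309 in dKO cells (log2 −5.87) and *Sp5* at 0.613 (log2 −4.42). *Axin2* was at 4.21 (log2 −1.73), *Lef1* at 3.05 (log2 −1.16) and *Notum* at 0.465 (log2 −2.08). *Tcf7* sat at the threshold at 8.71 (log2 −1.003, and −0.99 with 0.1 added). *Dkk1* was at 18.3, its highest level of all 14 conditions and above the 9.01 of WT cells (log2 1.03, and 0.92 rescaled to TPM). *Sp8* and *Nkd1* were at 5.02 and 1.88 and were not called.

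Side by side on day 3, *Rspo3* was at FPKM 0.171 without *Eomes*, 0.0335 without *T* and 0.309 without both, against 17.5 in the WT time course. *Sp5* was at 0.274, 3.01 and 0.613 against 12.7. In *T* KO cells *Sp5* thus retained more transcript than in both lines without *Eomes*, and *Sp8* less, at 2.21 against 5.35 and 5.02. *Dkk1* was at 13.3, 8.14 and 18.3 against 8.68. Since the 3 comparisons share their WT columns, their common direction is not independent evidence. On chromosome 8, where *Nkd1* lies, the median log2 ratio of all examined genes was 0.17 to 0.23 in the 6 comparisons of these lines.

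In the KO lines made from F1G4 cells the neural markers summed to FPKM 1.05 to 11.7 on days 2 and 3, against 0.326 and 0.239 in WT cells, and endoderm markers to at most 2.80, against 4.60 in WT cells on day 3. Their part in these differences was not tested. Ratios also followed transcript length in dKO cells on day 2, where the shortest of 4 equal groups of genes had a median log2 ratio of 0.25 and the longest −0.31. Rescaling to TPM shifts every log2 ratio by −0.41 in that comparison and by 0.28 in *Eomes* KO on day 3.

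Of the wider list on day 3, 7 of 50 examined genes were called lower and 8 higher in *Eomes* KO (30.0% called). Of all examined genes 16.4% were called there, 9.01% lower and 7.39% higher. In *T* KO 7 of 47 were lower and none higher (14.9%, against 6.04% of all, 3.92% lower and 2.12% higher). In dKO cells 6 of 53 were lower and 6 higher (22.6%, against 11.0% of all, 5.53% lower and 5.51% higher). *Wnt3* and *Wnt5b* were among the lower ones in each line. *Fzd10* was at FPKM 46.5 in *T* KO on day 2 (21.9 in WT, log2 1.09), and at 7.83 in *Eomes* KO and 15.1 in dKO on day 3 (34.1 and 34.0 in WT). *Bcl9l*, a cofactor of beta-catenin, was at 7.49 in *Eomes* KO on day 3 (2.60 in WT), and *Wnt7a* at 5.26 in dKO (0.914 in WT).

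**Figure D3:**
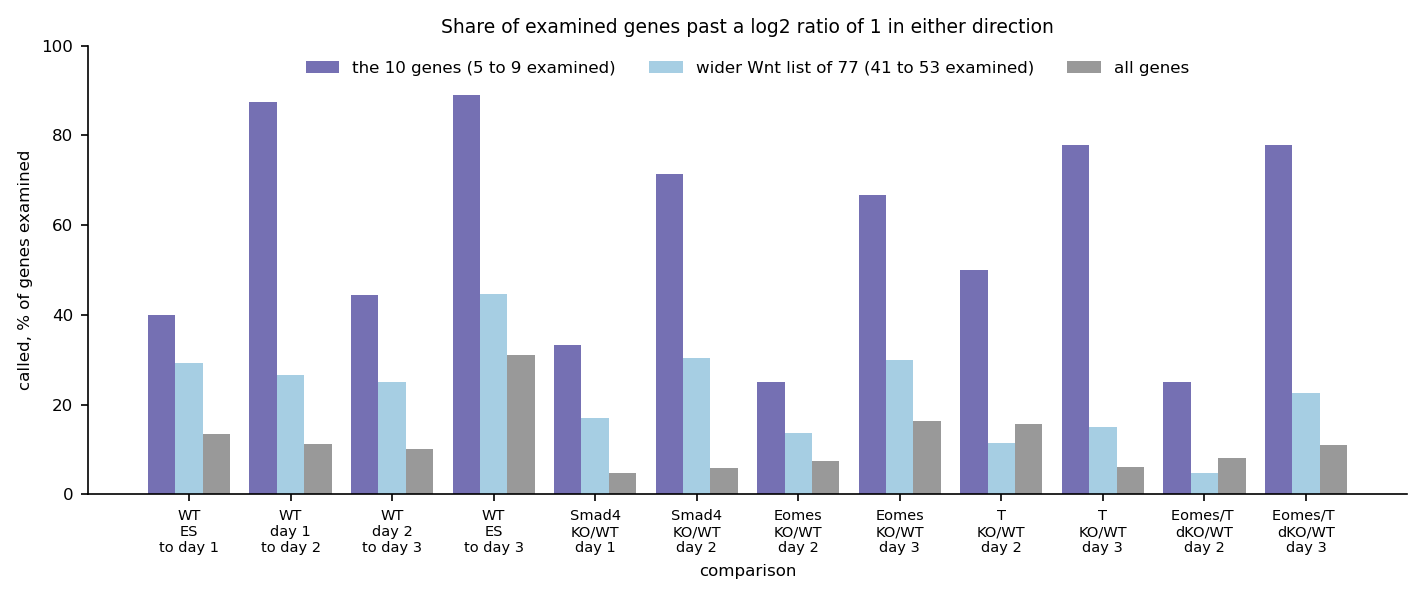
Percent of examined genes with a log2 ratio above 1 or below −1 in each of 12 comparisons (bars from 0), for the 10 genes, 77 other Wnt pathway genes and all genes. The share of members was 71.4% in Smad4 KO on day 2 against 5.77% of all genes, and 25.0% in Eomes KO on day 2 against 7.52%.

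Summed over the 8 KO comparisons, *Sp5* was called in 7 (6 lower, 1 higher), *Axin2* in 6 (5 lower, 1 higher) and *Lef1* in 6 (3 lower, 3 higher). *Rspo3* was called lower in 4 and *Notum* in 3. *Dkk1* was called lower in 1 and higher in 2, and *Tcf7*, *Sp8* and *Nkd1* were each called lower in 2. *Lef1* was the member whose calls were split most evenly between directions. Of all examined genes, 4.77% (*Smad4* KO day 1) to 16.4% (*Eomes* KO day 3) were called in a single comparison. The *Eomes* KO, *T* KO and dKO comparisons of a day share 1 WT measurement, so these totals are not independent counts.

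Across the 14 conditions, Pearson's r of log2(FPKM + 0.1) between pairs of the 9 genes other than *Lgr5* had a median of 0.35 over 36 pairs and ran from −0.37 (*Lef1* and *Dkk1*) to 0.92 (*Sp8* and *Nkd1*). *Axin2* was closest to *Sp5* (0.85) and *Nkd1* (0.78). *Lef1* was at most 0.34 with any other member, and *Notum* at most 0.18. The conditions are not independent, since several are stages of the same line, and r is given as a description.

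**Figure D4:**
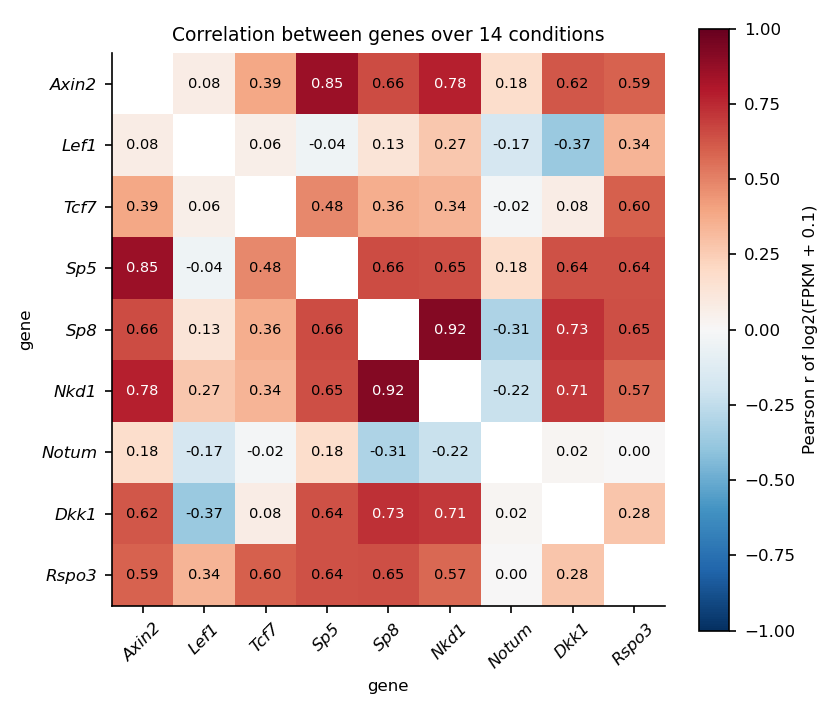
Pearson's r of log2(FPKM + 0.1) over 14 conditions between 9 of the genes, without Lgr5. Axin2, Sp5, Sp8, Nkd1, Dkk1 and Rspo3 were all positive with each other, and Dkk1 with Rspo3 had the lowest value (0.28). With these genes Tcf7 ran from 0.08 (Dkk1) to 0.60 (Rspo3). Lef1 was at most 0.34 (Rspo3) and Notum at most 0.18 (Axin2) with any of them.

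By the same measure over 12590 genes, the genes most like *Axin2* were *Trim67* (0.88), *Fzd10* (0.88) and *Relt* (0.88). For *Sp5* they were *Trim67* (0.93), *Gcnt4* (0.90) and *Gsc* (0.89), and *Trim67* thus stood first for both. *Rspo3* was most like *Fst* (0.95), which encodes the activin antagonist follistatin, *Alox15* (0.90) and *Chst7* (0.89). *Sp8* was most like *Map3k15* (0.98), *Nudt11* (0.96) and *Zfp36l3* (0.95), and *Nkd1* like *Zfp964* (0.95), *Map3k15* (0.93) and *Atad3aos* (0.93). *Dkk1* was most like *Tmbim1* (0.98), *Akt1* (0.96) and *Shisa5* (0.95), and *Notum* like *Adgre5* (0.94), *Bmp4* (0.86) and *Stat3* (0.84). *Notum* exceeded FPKM 1 in only 2 of the 14 conditions, with 7.63 at the ES stage and a median of 0.408. How far its r rests on the ES stage was not tested. For *Lef1* the list was *Dennd5b* (0.87), *LOC106557447* (0.86) and *Jmjd6* (0.86), and for *Tcf7* it was *Mpp6* (0.85), *Epha1* (0.81) and *Lrrfip2* (0.80). With 14 points and this many genes, high values of r are found for every member.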

How the data were processed

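RNA-seq of 18 samples was used, in 14 conditions and 12 comparisons. The authors prepared strand-specific ScriptSeq libraries from total RNA, sequenced them paired-end, used FastQC and cutadapt 2.9 on the reads, mapped these to mm10 (refSeq annotation) by HISAT2 2.1.0, processed alignments in SAMtools 1.9, and computed with Cuffdiff 2.2.1 the deposited FPKM, with multi-read and bias correction and no effective length correction. Values are scaled to library size, and each column holds 1 value per gene and condition, so no replicate spread could be read. The labels give 1 sample per KO condition and per day of the WT cells of the *Smad4* line. The legends describe averages of 2 replicates, so the number behind these columns is unclear. Only the F1G4 WT columns, with 2 samples by label, lacked a spacing of single fragments.

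Ratios were taken within a table, except those between the WT lines, which were taken across tables after the median log2 ratio was removed. The rule for a call (FPKM above 1 in either group, log2 ratio beyond 1) follows the study's methods, was applied to all 24538 genes and uses no pseudocount. It was tried on simulated data with Poisson noise alone and changes larger than the threshold. That does not cover ratios near the threshold, low FPKM or spread between replicates. Medians and correlations used a pseudocount of 0.1 FPKM. The members, the wider list of 77 Wnt genes and the marker lists were chosen with earlier results of these data known. All members are described, other genes of the list were named only when called and at FPKM 5 or more in the higher condition, and the 3 genes with the highest r are named as most alike. Other pseudocounts, FPKM minimums, thresholds, scalings and WT columns were tried, and removal of GC content and length trends in 20 equal groups of genes was added after seeing the data.

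Depth was recovered for 10 columns in which 74.2% to 80.4% of low values were whole multiples of 1 fragment, within 0.15 of a step, where 30% would be for arbitrary values. In the other 10 columns 54.5% to 57.8% were. Approximate fragments per gene carry exact 95% Poisson intervals. The software was matplotlib 3.10.9, scipy 1.17.1, pandas 2.3.3 and numpy 2.4.6 under Python 3.11.15. Promoters and positions were taken from RefSeq GRCm38.p6. ChIP-seq samples were not used here.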

Additional observations from a re-analysis of the deposited data

Results flagged for a closer look

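Several members went past the call threshold in opposite directions under the same loss, which had no replicate and was not tested. In *T* KO cells the log2 ratio to WT was 1.00 on day 2 and −1.08 on day 3 for *Axin2*, 1.83 and −1.90 for *Lef1*, and 1.93 and −2.09 for *Sp5*. In *Eomes* KO cells *Lef1* was at 1.08 on day 2 and −1.03 on day 3, and neither passed the threshold with FPKM rescaled to TPM (0.86 and −0.75) or with a pseudocount of 1 (0.90 and −0.85). The *Axin2* ratios in *T* KO cells also fell short of it with a pseudocount of 1 (0.94 and −0.97).

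On day 2 *Axin2* and *Sp5* were called higher in *T* KO cells and lower in other lines. *Axin2* was lower in *Smad4* KO (log2 −3.36) and dKO cells (−1.08), and *Sp5* in *Smad4* KO (−4.80), *Eomes* KO (−1.87) and dKO cells (−2.08). *Lef1* was higher in *T* KO (1.83) and also in *Eomes* KO (1.08), *Smad4* KO (0.96) and dKO cells (0.47), the last pair not called. These differences between lines were not tested. The *Eomes* KO, *T* KO and dKO ratios share their WT measurement, so the differences between these lines rest on the KO columns.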

How the results depend on the processing

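No called ratio of a member changed sign under any alternative run (pseudocounts of 0.1 and 1, TPM, scaling to a median ratio of 1, the time-course WT column, GC content and length trends removed). Of the ratios not called, *Sp8* and *Nkd1* in dKO cells on day 2 changed sign with TPM (0.39 to −0.02 and 0.26 to −0.15). Of 102 counts of called members under the alternatives, 74 were within 1.5 times the main count. With a log2 threshold of 2 the counts were 1, 4 and 2 for the WT steps from the ES stage to day 1, to day 2 and to day 3, 1 and 3 for *Smad4* KO on days 1 and 2, 0 and 2 for *Eomes* KO on days 2 and 3, 0 and 4 for *T* KO, and 1 and 3 for dKO. With FPKM above 5 they were 1 (ES stage to day 1), 3 (day 1 to day 2), 1 and 2 (*Smad4* KO days 1 and 2), 1 (*Eomes* KO day 2) and 1 (dKO day 2). With a pseudocount of 1 they were 1 (ES stage to day 1), 0 (*Eomes* KO day 2), 2 (*T* KO day 2), 1 and 4 (dKO days 2 and 3), and with 0.1 the *T* KO count on day 2 was 2. Without an FPKM minimum the first WT step gave 7 and *Smad4* KO day 1 gave 5, and with TPM both gave 4. The minimum was then 1 TPM, which is lower than FPKM 1 in these columns and let in more genes. With GC content and length trends removed dKO day 2 gave 1. The main counts were 2, 7 and 4 for the WT steps, 2 and 5, 2 and 6, 4 and 7, and 2 and 7 for the KO lines in the order above. The share of all examined genes called was computed under the main rule only. The counts under the alternatives therefore have no such share beside them.

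No paired analysis was possible because each column holds 1 value per condition, and replicates could not be left out in turn for the same reason. The unknown depth of the F1G4 WT columns leaves the counting error of their low values, such as *Sp5* and *Dkk1* on day 1, undetermined.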
